A study of Mus musculus with 27 samples.

Results

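Alpha-fetoprotein (Afp), H19, Igf2, Gpc3, Igf2bp3, Cd24a and Dlk1 are 7 genes that the mouse liver transcribes before birth and largely silences afterwards. They were chosen by name, as known fetal liver genes, with earlier results of these data already known. Each symbol matched 1 of the 55414 genes in the count table. Polyadenylated RNA of whole liver was sequenced in 27 female Balb/c mice, aged 8 weeks at the start of a 2-week course of intraperitoneal injections. Mice without carbon tetrachloride (CCl4) were injected with olive oil and formed 4 groups. These were control (PBS into the tail vein, n = 4), 4MU (4-methylumbelliferone by daily gavage, n = 3), siLuc-LNP (lipid nanoparticles with a luciferase siRNA, n = 3) and siHAS2-LNP (the same particles with an siRNA against hyaluronan synthase 2, Has2, n = 3). Mice injected with CCl4, which damages the hepatocytes that metabolise it and so drives fibrosis and regrowth, formed CCl4 (n = 2), CCl4 + 4MU (n = 4), CCl4 + siLuc-LNP (n = 4) and CCl4 + siHAS2-LNP (n = 4). The labels name neither a gavage nor a tail vein vehicle for the CCl4 group.

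Afp is the albumin-like carrier protein of fetal plasma and a serum marker of liver regeneration and liver cancer. H19 is an imprinted noncoding RNA that neighbours Igf2, which encodes the fetal growth factor insulin-like growth factor 2. Gpc3 encodes glypican-3, a heparan sulphate proteoglycan of the cell surface, and Igf2bp3 an RNA-binding protein of fetal and tumour cells. Cd24a encodes a small mucin-like surface protein found on liver progenitors, bile duct epithelium, B cells and erythroid precursors. Dlk1, an imprinted gene, encodes a surface protein used to isolate hepatoblasts. After birth the repressor Zhx2 lowers Afp, H19 and Gpc3 in hepatocytes, and loss of Zhx2 in the BALB/cJ substrain leaves them expressed in the adult. The substrain of these mice is not given in the labels.

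In GRCm39, Afp lies at chr5:90638584-90656766 on the plus strand, next to the other genes of the albumin family. H19 (chr7:142129262-142133957) and Igf2 (chr7:142204503-142220694) share a cluster on the minus strand of chromosome 7. Gpc3 occupies chrX:51361303-51703137 and Igf2bp3 chr6:49062144-49192447, both on the minus strand. Cd24a was annotated at chr10:43454280-43460264 and Dlk1 at chr12:109418749-109429262, both on the plus strand. Of the exon bases of Igf2, 58.4% also belong to exons of Gm49394 on the same strand, and reads that fall on 2 genes are commonly left out of gene counts. Igf2bp3 shares 19.3% of its exon bases with Malsu1 on the opposite strand, and whether counting used strand is not given in the sources used here.

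RefSeq promoters, 250 bases before to 50 after the annotated start, were held for 5 of the 7 genes in build GRCm38.p6. They are shown for 3 genes that rose, to let their promoter sequences be compared. Both strands were searched and matches are in capitals. GTTAAT was searched as a half-site of the liver factor HNF1, and so was its variant GTTAAC. The letters TATAAA stand for the TATA box and CCAAT for the box of that name. CCGCCC stands for the GC box, and CACGTG was searched as the E box.
Afp, chr5:90490464-90490763, plus strand: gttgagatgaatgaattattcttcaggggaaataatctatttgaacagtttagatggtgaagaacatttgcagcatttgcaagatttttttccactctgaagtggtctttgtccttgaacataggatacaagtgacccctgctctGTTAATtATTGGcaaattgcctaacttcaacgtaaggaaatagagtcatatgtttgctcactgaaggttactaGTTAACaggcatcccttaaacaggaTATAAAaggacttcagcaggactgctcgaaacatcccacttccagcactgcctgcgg
Gpc3, chrX:52613925-52614224, minus strand: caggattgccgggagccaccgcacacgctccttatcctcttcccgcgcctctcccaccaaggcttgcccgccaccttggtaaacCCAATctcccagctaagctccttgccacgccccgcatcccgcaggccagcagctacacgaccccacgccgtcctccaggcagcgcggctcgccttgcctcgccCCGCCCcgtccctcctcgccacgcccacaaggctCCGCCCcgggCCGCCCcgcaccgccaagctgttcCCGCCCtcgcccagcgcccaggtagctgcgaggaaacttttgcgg
Igf2bp3, chr6:49214905-49215204, minus strand: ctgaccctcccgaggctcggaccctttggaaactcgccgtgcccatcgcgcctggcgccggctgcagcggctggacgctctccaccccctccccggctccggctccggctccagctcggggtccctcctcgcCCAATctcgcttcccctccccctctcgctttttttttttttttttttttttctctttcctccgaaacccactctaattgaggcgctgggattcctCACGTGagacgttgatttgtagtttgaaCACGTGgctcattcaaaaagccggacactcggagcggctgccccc
The promoter of Afp held both HNF1 half-sites and the TATA box 1 time each and, on the other strand, 1 CCAAT. Among 32817 promoters of the same length, 7.10% held the half-site found farther from the start, 3.04% the nearer one, 13.6% the TATA box and 37.4% CCAAT. Gpc3 held 4 GC boxes, a motif found in 35.6% of the promoters, and 1 CCAAT. Igf2bp3 held 2 E boxes, found in 7.15%, and 1 CCAAT. No 2 matches overlapped. The guanine and cytosine share was 40.0% for Afp, 70.7% for Gpc3 and 60.3% for Igf2bp3, against a median of 52.7% over all promoters.

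H19 is also the precursor of miR-675, whose mature forms are shown because they are its best-known product; capitals mark the seed, bases 2 to 8.
mmu-miR-675-5p: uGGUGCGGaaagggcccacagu
mmu-miR-675-3p: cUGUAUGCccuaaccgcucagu
These small RNAs were not measured here, and the 84 bases of H19 annotated as Mir675 received 0 counts under that name.

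Libraries held 7044386 to 29425937 counted fragments, the smallest being CCl4 + siHAS2-LNP mouse 4. Levels are given in CPM, the count's share of a library total multiplied by 1000000, with that total scaled by the trimmed mean of M values (TMM). A count of 3, taken as the limit of detection, was worth 0.102 to 0.426 CPM before scaling and covers counting error only. Has2, the siRNA's target, had 0 counts in all but 2 libraries, with 2 counts in CCl4 mouse 2 and 1 count in CCl4 + siLuc-LNP mouse 4, so its knockdown was not detectable at this depth. Hepatocyte markers, which include Alb and Apoa1, summed to 84200 to 193000 CPM in CCl4-treated mice and 140000 to 216000 CPM in the others. In whole liver, a change in the number of cells of a type and a change in RNA per cell cannot be told apart.

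Of the 7 genes, 6 reached a mean of 10 counts per library and were tested among 14114 genes. Afp, H19, Gpc3 and Cd24a also reached it in the 13 mice without CCl4. Igf2bp3 (a mean of 9.92 counts there) and Dlk1 (0.462 counts) passed only through the CCl4-treated mice. Dlk1 thus had to differ to be tested, while Igf2bp3 fell just short of a mean of 10 counts without CCl4. Igf2 did not reach it. Averaged over the 4 matched comparisons of CCl4-treated with other mice, all 6 tested genes rose, in an experiment where 51.9% of all tested genes changed. The plot of levels by mouse shows each library.

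**Figure D1:**
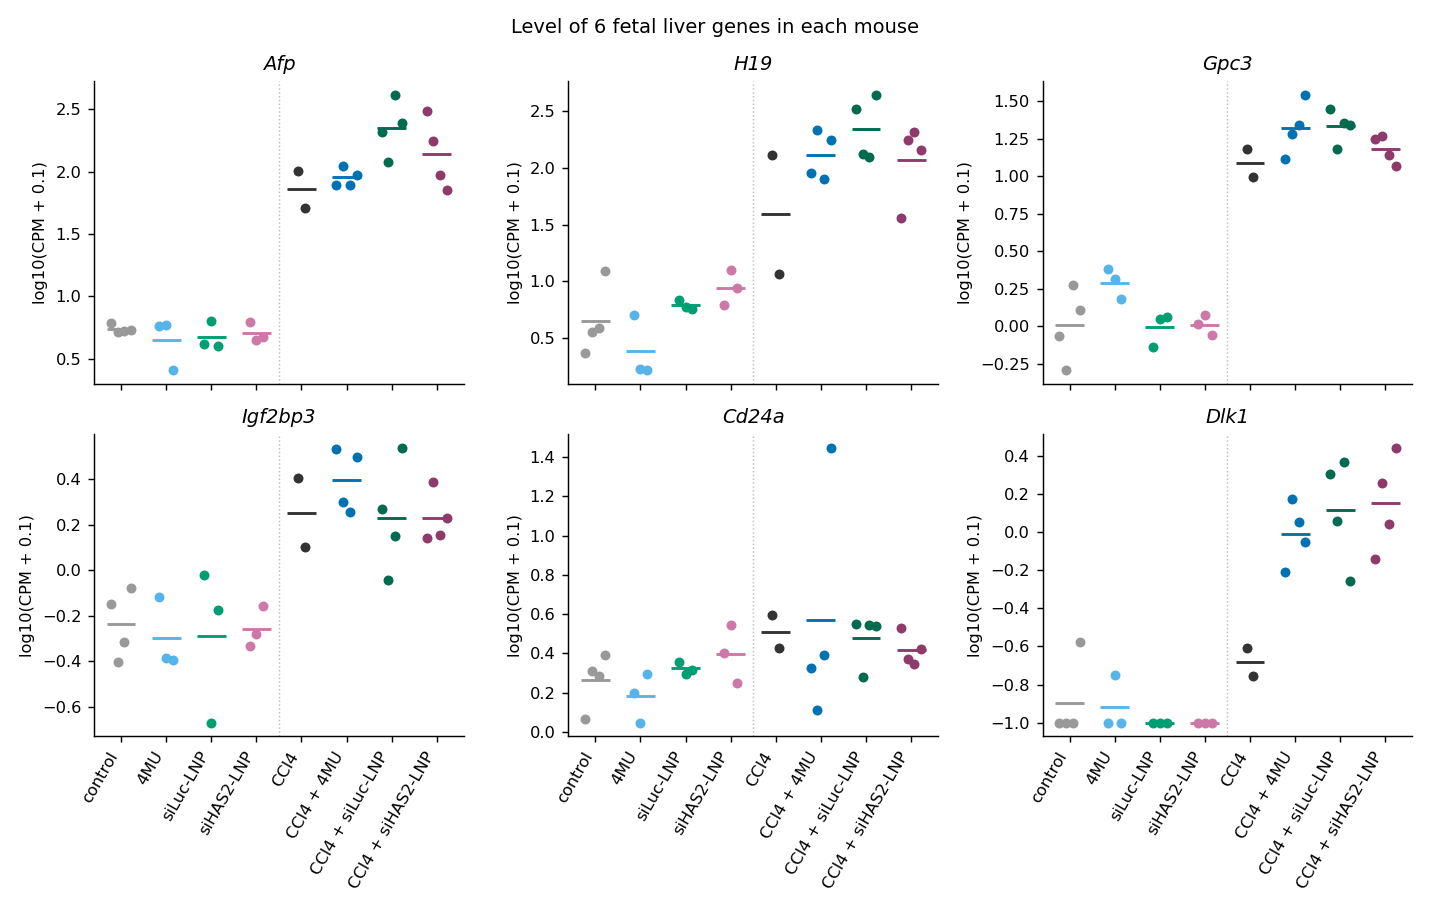
Level of 6 fetal liver genes in each of 27 mice, as log10 of CPM plus 0.1; each point is a mouse, bars are group means on that scale, and the dotted line separates mice without CCl4 (left) from CCl4-treated mice (right). Afp and Gpc3 separate completely, H19 and Igf2bp3 overlap by 1 mouse, Cd24a overlaps widely apart from 1 mouse at 27.9 CPM, and Dlk1 is low in the CCl4 group and higher in the other CCl4-treated groups.

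Afp had the most uniform baseline. In mice 1 to 4 of the control group it stood at 6.0, 5.13, 5.21 and 5.31 CPM. The 4MU mice had 5.73, 5.77 and 2.48 CPM, the siLuc-LNP mice 4.06, 6.26 and 3.91, and the siHAS2-LNP mice 6.09, 4.33 and 4.6. None of these groups stood apart from another. With CCl4 alone Afp reached 101 and 51.5 CPM. It was 78.7, 112, 78.9 and 94.3 CPM in CCl4 + 4MU mice, 207, 119, 414 and 248 CPM in CCl4 + siLuc-LNP mice, and 306, 177, 94.3 and 71.8 CPM in CCl4 + siHAS2-LNP mice. Every CCl4-treated mouse therefore exceeded the 13 others, whose highest value was 6.26 CPM. Afp and Gpc3 were the members separated in this way, as were 3.21% of all tested genes. The log2 fold change of Afp was 4.70 ± 0.24 (SE) on average (adjusted p = 4.64e-14, edgeR quasi-likelihood test). By comparison it was 3.81 ± 0.44 for CCl4 against control, 4.28 ± 0.47 with 4MU, 5.70 ± 0.50 with siLuc-LNP and 5.02 ± 0.49 with siHAS2-LNP, each of them called.

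H19 reached levels like those of Afp but varied more. Control mice had 2.24, 3.48, 3.80 and 12.3 CPM, the last of them well above the rest of its group. Values were 4.97, 1.6 and 1.57 CPM with 4MU, 6.80, 5.86 and 5.62 CPM with siLuc-LNP, and 6.13, 12.4 and 8.60 CPM with siHAS2-LNP. The 2 CCl4 mice stood far apart, at 130 and 11.6 CPM, and mouse 2 lay below control mouse 4. The remaining CCl4-treated mice had 90.3, 215, 79.2 and 176 CPM with 4MU, 326, 133, 124 and 438 CPM with siLuc-LNP, and 35.8, 174, 206 and 143 CPM with siHAS2-LNP. The mean log2 fold change was 4.68 ± 0.39 (SE, adjusted p = 4.65e-10), with 3.68 ± 0.73, 5.70 ± 0.85, 5.39 ± 0.82 and 3.95 ± 0.76 in the comparisons for CCl4 alone, 4MU, siLuc-LNP and siHAS2-LNP. Without CCl4 mouse 1, the value for CCl4 against control was 1.09 and no longer passed (adjusted p = 0.317).

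Gpc3 was near 1 CPM at baseline and did not overlap between treated and untreated mice. Control mice had 0.763, 0.413, 1.79 and 1.18 CPM, and the 4MU mice, the highest without CCl4, had 2.3, 1.95 and 1.42 CPM. The siLuc-LNP mice had 0.629, 1.02 and 1.05 CPM and the siHAS2-LNP mice 0.928, 1.08 and 0.777. CCl4 mice stood at 15.2 and 9.75 CPM. The rise was seen at every treatment, with 12.8, 18.9, 21.9 and 34.7 CPM for CCl4 + 4MU, 27.8, 15.1, 22.5 and 21.9 CPM for CCl4 + siLuc-LNP, and 17.6, 18.3, 13.8 and 11.6 CPM for CCl4 + siHAS2-LNP. Its mean log2 fold change was 3.92 ± 0.19 (SE, adjusted p = 1.50e-14). The comparisons gave 3.53 ± 0.36, 3.54 ± 0.36, 4.58 ± 0.39 and 4.03 ± 0.38 in the same order as for H19. The highest level, 34.7 CPM, was that of CCl4 + 4MU mouse 4, which was also highest in Cd24a. Without that mouse the value for CCl4 + 4MU against 4MU was 3.24.

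Igf2bp3 rose by less and was counted sparsely. It ranged from 0.114 to 0.857 CPM (2 to 18 counts) in the 13 mice without CCl4, with a median of 0.424 CPM. In CCl4 mice it stood at 2.43 and 1.17 CPM. With 4MU added it was 3.31, 1.89, 1.70 and 3.06 CPM, with siLuc-LNP 1.76, 0.809, 1.32 and 3.36 CPM, and with siHAS2-LNP 1.29, 2.34, 1.32 and 1.6 CPM. The lowest of these, CCl4 + siLuc-LNP mouse 2, was the only CCl4-treated mouse within the untreated range. The mean log2 fold change was 2.00 ± 0.26 (SE, adjusted p = 7.29e-07). All 4 comparisons were called, with 1.79 ± 0.53, 2.55 ± 0.52, 1.81 ± 0.51 and 1.84 ± 0.53. Since Igf2bp3 passed the low-count filter only through the CCl4-treated mice, these values are given as a description. The call against siLuc-LNP was lost without CCl4 + siLuc-LNP mouse 4 (adjusted p = 0.0614), siLuc-LNP mouse 2 (0.0690) and when only those groups were fitted (0.0965). Against siHAS2-LNP it was lost without CCl4 + siHAS2-LNP mouse 2 (adjusted p = 0.0725), siHAS2-LNP mouse 1 (0.0963) or siHAS2-LNP mouse 2 (0.0848), and against control without CCl4 mouse 1 (adjusted p = 0.181). Malsu1, which overlaps Igf2bp3 on the other strand, had a mean of 21.8 CPM in CCl4-treated and 26.7 CPM in other mice.

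Cd24a hardly moved apart from 1 library. It ranged from 1.01 to 3.39 CPM in mice without CCl4. The CCl4 mice had 3.84 and 2.56 CPM, the CCl4 + siLuc-LNP mice 3.44, 1.81, 3.42 and 3.36 CPM, and the CCl4 + siHAS2-LNP mice 3.28, 2.24, 2.13 and 2.53 CPM. In CCl4 + 4MU mice 1 to 3 it was 2.02, 1.20 and 2.36 CPM, against 27.9 CPM (786 counts) in mouse 4. The mean log2 fold change was 0.99 ± 0.35 (SE, adjusted p = 0.0215), and without mouse 4 it was 0.45 ± 0.16 (adjusted p = 0.0252). This call was lost with limma and quality weights (0.56, adjusted p = 0.102) and with the replicate number as a block (0.65, adjusted p = 0.0861). Of the single comparisons only CCl4 + 4MU against 4MU passed, at 2.54 ± 0.72 (adjusted p = 0.0119), and without mouse 4 its value was 0.37 (adjusted p = 0.492). It also missed the threshold without 4MU mouse 2 (adjusted p = 0.0577), with quality weights (0.93, adjusted p = 0.191), with the replicate block (1.41, adjusted p = 0.125) and when only those groups were fitted (adjusted p = 0.109). The others were 0.81 ± 0.75, 0.58 ± 0.69 and 0.02 ± 0.68 for CCl4 alone, siLuc-LNP and siHAS2-LNP.

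That library also stood apart in genes of epithelia. Krt19, a keratin of bile ducts and other simple epithelia, was at 92.5 CPM in CCl4 + 4MU mouse 4 and at most 6.13 CPM in the other 26 libraries. Epcam, an epithelial adhesion molecule, was at 19.6 CPM against at most 2.39. The 9 duct and progenitor markers, Krt19 and Epcam among them, summed to 327 CPM there. CCl4 + 4MU mice 1 to 3 had 154, 181 and 266 CPM, and all CCl4-treated mice ranged from 154 to 781 CPM. The erythroid markers summed to 445 CPM in mouse 4, the highest of the 14 CCl4-treated mice. Among 10 markers of intestinal epithelium, a list added after these values were seen, 5 had more counts in this library than in any other, led by Muc17 (1189 counts against at most 1) and Slc26a3 (976 against at most 5). Others of the list went the other way: Cdh17 (27 counts against up to 864 elsewhere), Krt20 (7 against up to 102) and Muc2 (2 against up to 6). The defining intestinal factors Cdx1 and Cdx2 had 0 counts in this library, and Cdx1 had none elsewhere either. The part of these genes in the Cd24a value was not tested.

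**Figure D2:**
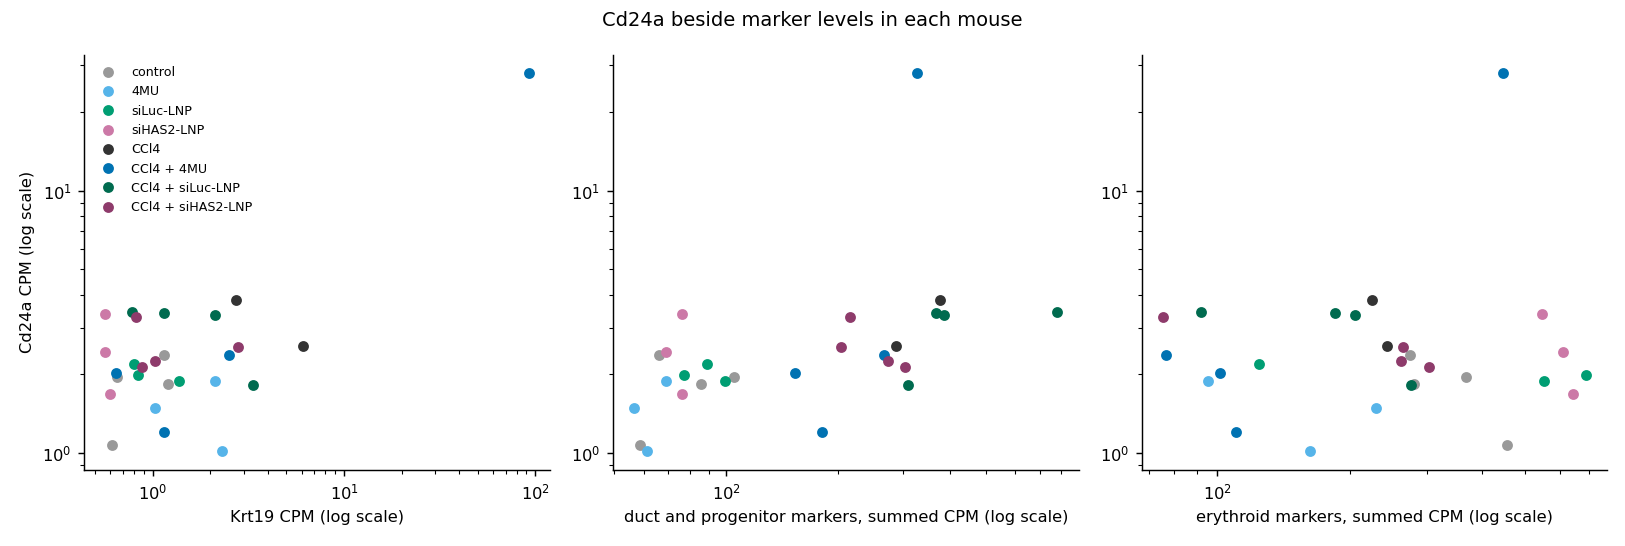
Cd24a level in CPM (vertical, log scale) against Krt19 (left), the sum of 9 duct and progenitor markers (middle) and the sum of 10 erythroid markers (right), all in CPM on log scales; each point is 1 of 27 mice, coloured by group. CCl4 + 4MU mouse 4 lies alone at the top right of the Krt19 panel, at 92.5 and 27.9 CPM, while in the other panels its marker sums of 327 and 445 CPM fall within the range of the rest.

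Dlk1 was nearly absent without CCl4. It had 0 counts in 11 of those 13 mice, 4 counts in control mouse 4 and 2 counts in 4MU mouse 2. In the CCl4 group it had 3 and 2 counts (0.146 and 0.0753 CPM), at the detection limit. Every mouse given CCl4 with 4MU or a nanoparticle had more. CCl4 + 4MU mice had 12, 28, 28 and 22 counts (0.516, 1.40, 1.03 and 0.782 CPM). CCl4 + siLuc-LNP mice had 49, 27, 37 and 13 counts (1.92, 1.04, 2.22 and 0.450 CPM), and CCl4 + siHAS2-LNP mice 16, 35, 25 and 20 counts (0.626, 1.71, 1.00 and 2.67 CPM). Against their partner groups without CCl4, taken at 3 counts per library, the means were at least 6.07-fold higher with 4MU, 8.21-fold higher with siLuc-LNP and 8.37-fold higher with siHAS2-LNP, and all 3 comparisons were called. Against the CCl4 group, taken at the same limit, they were at least 6.39-fold, 9.65-fold and 10.3-fold higher in the 4MU, siLuc-LNP and siHAS2-LNP mice given CCl4. In the edgeR test the unadjusted p was 0.00084 with siLuc-LNP and 0.000867 with siHAS2-LNP. After adjustment the 4MU (adjusted p = 0.0289) and siHAS2-LNP (adjusted p = 0.0142) comparisons passed and the siLuc-LNP one did not (adjusted p = 0.0866). They share the 2 CCl4 mice. Both calls were lost without CCl4 mouse 2, and that for 4MU also without CCl4 + 4MU mouse 2, with the replicate block and with limma and quality weights. CCl4 against control was not called (adjusted p = 0.529). Between CCl4 + siHAS2-LNP and CCl4 + siLuc-LNP, Dlk1 differed by 0.02 ± 0.55 on the log2 scale (adjusted p = 0.993). Dlk1 passed the low-count filter only through mice given CCl4 with 4MU or a nanoparticle (a mean of 26.0 counts, against 2.5 in the CCl4 group). Its calls against mice without CCl4 and against the CCl4 group are therefore given as a description.

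Meg3, Rian and Mirg, noncoding RNAs expressed from the maternal chromosome of the same imprinted cluster as Dlk1, were followed beside it. Meg3 had at most 1.27 CPM in mice without CCl4 and at least 2.37 CPM in CCl4-treated mice. It stood at 5.10 and 2.37 CPM in the CCl4 group and at 9.78, 25.6, 34.5 and 17.9 CPM in CCl4 + siHAS2-LNP mice, the highest group. Rian was at 5.30 and 3.05 CPM in the CCl4 group and at 4.24 to 29 CPM in the others given CCl4. Mirg had at most 3 counts in any mouse without CCl4 and 4 to 47 counts in CCl4-treated mice. The mean log2 fold change over the 4 comparisons was 4.21 ± 0.31 for Meg3 (adjusted p = 4.22e-11) and 4.95 ± 0.31 for Rian (adjusted p = 1.69e-12), and Mirg was also called. Rian (a mean of 6.69 counts without CCl4) and Mirg (0.615 counts) passed the low-count filter only through the CCl4-treated mice, as Dlk1 did, so their values are given as a description, whereas Meg3 reached it in the other mice as well (12.8 counts). The CCl4 group was the lowest of the CCl4-treated groups in the mean of each of these 3 RNAs. For Meg3 the log2 difference from it was 2.57 ± 0.60 with siHAS2-LNP (adjusted p = 0.00726), 1.83 ± 0.58 with siLuc-LNP (adjusted p = 0.142) and 1.63 ± 0.58 with 4MU (adjusted p = 0.0505). For Rian it was 1.93 ± 0.53, 1.94 ± 0.53 and 1.14 ± 0.52 in that order, and for Mirg 2.32 ± 0.67, 2.28 ± 0.67 and 2.42 ± 0.67. Of the Rian and Mirg values, both with siHAS2-LNP and that of Mirg with 4MU were called. The 3 comparisons share the 2 CCl4 mice. Between CCl4 + siHAS2-LNP and CCl4 + siLuc-LNP none of the 3 RNAs was called, and Meg3 differed by 0.74 ± 0.42 (adjusted p = 0.396).

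**Figure D3:**
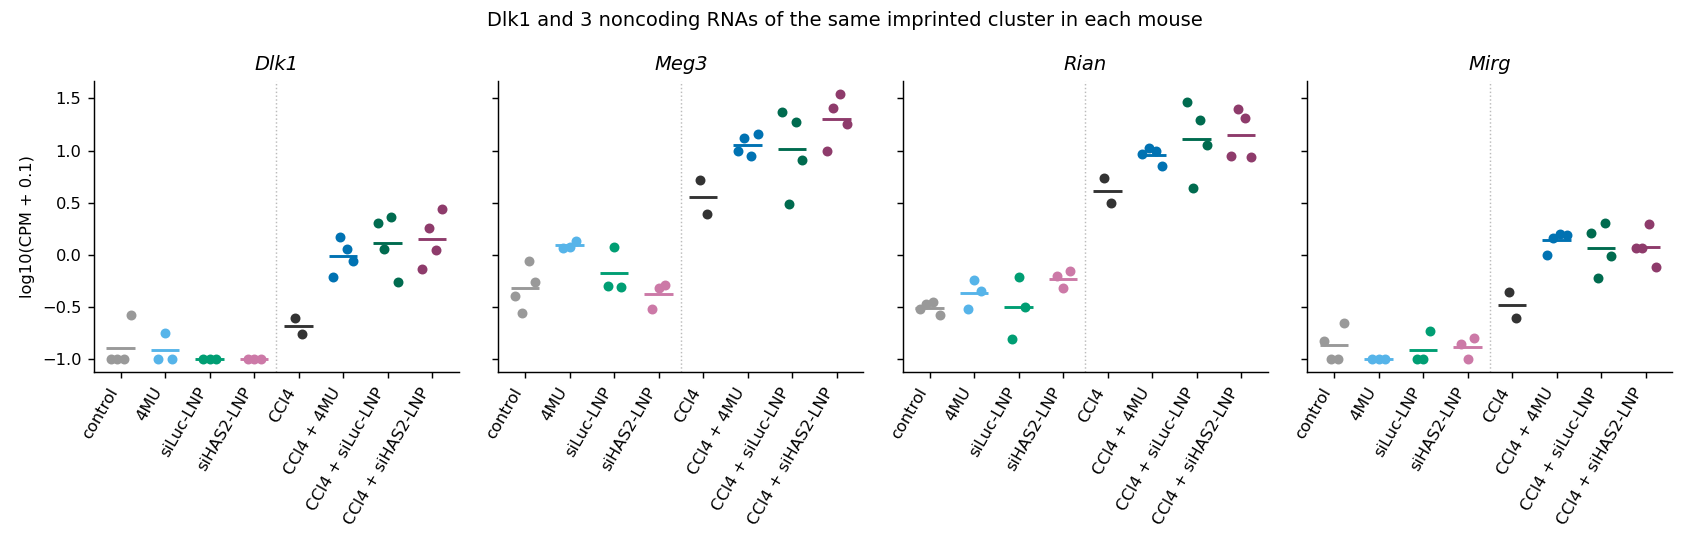
Dlk1, Meg3, Rian and Mirg in each mouse as log10 of CPM plus 0.1; points are mice, bars are group means on that scale, and the dotted line separates mice without CCl4 from CCl4-treated mice. Meg3, Rian and Mirg are higher in every CCl4-treated mouse than in any other mouse, as are 3.21% of all tested genes. The CCl4 mice have Dlk1 at 0.146 and 0.0753 CPM, within the range of the mice without CCl4. Dlk1, Rian and Mirg passed the low-count filter only through the CCl4-treated mice.

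Igf2 could not be followed. It had 0 counts in 24 libraries, 1 count in CCl4 + 4MU mouse 4, 3 in CCl4 + siLuc-LNP mouse 4 and 2 in CCl4 + siHAS2-LNP mouse 2. All 8 groups lay at or under the limit of detection. The mean was 0.0169 CPM in CCl4-treated and 0 in other mice (two-sided permutation test with 100000 resamples, 14 against 13 mice, p = 0.222). Gm49394, which holds most of its exon bases, had 0 counts throughout, so low transcription and reads left out for falling on both genes cannot be told apart.

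Per kilobase of exon, the mean level in the 14 CCl4-treated mice was highest for H19 at 57.2 CPM and Afp at 44.6 CPM. Gpc3 followed at 6.23, Cd24a at 1.72, Igf2bp3 at 0.224 and Dlk1 at 0.184 CPM per kilobase. In the 13 other mice H19 (2.04), Afp (1.45), Cd24a (0.747) and Gpc3 (0.393) had the highest levels on that scale. Gpc3 lay below Cd24a in the mean of these mice, except in the 4MU group (0.630 against 0.564 CPM per kilobase), and above it in the mean of the CCl4-treated mice.

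**Figure D4:**
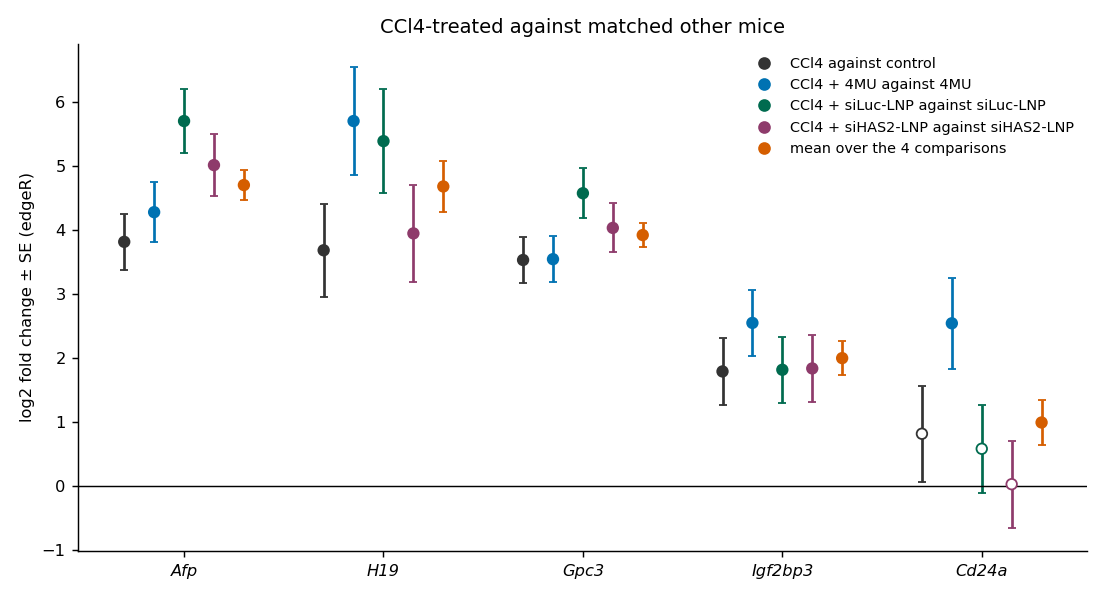
Log2 fold change with its standard error (edgeR) of CCl4-treated against matched other mice for 5 genes, in 4 comparisons and their mean; filled points passed an adjusted p of 0.05 over 14114 genes and open points did not. Afp, H19, Gpc3 and Igf2bp3 are filled throughout, and Cd24a is filled for CCl4 + 4MU against 4MU and for the mean alone. Igf2bp3 passed the low-count filter only through the CCl4-treated mice. Dlk1 is left out because its fitted change depends on the value assumed for libraries at 0.

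By comparison, 4 of the 6 tested genes were called in CCl4 against control, where 34.1% of all genes were. The 6 were all called in CCl4 + 4MU against 4MU (23.7% of all genes), 5 in CCl4 + siLuc-LNP against siLuc-LNP (24.2%) and 5 in CCl4 + siHAS2-LNP against siHAS2-LNP (12.8%). Every call was a rise. The median log2 fold change of the 6 was 2.66, 3.91, 4.98 and 3.99 in that order. Since 2 of the 6 were tested only because they were counted in CCl4-treated mice, these counts and medians describe the genes and support nothing further.

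The treatments were compared within the CCl4-treated mice. In CCl4 + 4MU against CCl4, 1 of 6 genes was called, Dlk1, as were 18.3% of all genes; 9 of 10 mitosis genes fell there, and Top2a fell by 2.74 on the log2 scale. Dlk1 was again the only call in CCl4 + siHAS2-LNP against CCl4 (14.4% of all genes), where 4 of 10 mitosis genes and 4 of 9 stellate cell and fibroblast markers fell. CCl4 + siLuc-LNP against CCl4 gave 0 calls with edgeR (0.248% of all genes), although 4 of the 6 had an unadjusted p under 0.05. Afp was higher there by 1.70 ± 0.47 on the log2 scale (adjusted p = 0.101), and DESeq2 called 1 gene, Afp (adjusted p = 0.0149). Without CCl4 + siLuc-LNP mouse 4 Afp passed with edgeR (adjusted p = 0.0373). These 3 comparisons share the 2 CCl4 mice. The Dlk1 calls among them are given as a description, since Dlk1 passed the low-count filter only through the other CCl4-treated mice.

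Against the nanoparticle control, CCl4 + siHAS2-LNP gave 0 calls with edgeR or DESeq2 (1.09% of all genes) and none had an unadjusted p under 0.05. Afp differed by -0.60 ± 0.36 and H19 by -0.87 ± 0.59 on the log2 scale. The 95% interval for Afp reached from -1.30 to 0.10, so a difference in either direction was not excluded by it. CCl4 + 4MU against CCl4 + siLuc-LNP gave 0 calls with edgeR (0.623% of all genes), 2 genes with an unadjusted p under 0.05 and 1 call with DESeq2. Afp was lower with 4MU by -1.44 ± 0.36 (adjusted p = 0.0549 with edgeR, 0.00728 with DESeq2, 0.0163 with edgeR without CCl4 + siLuc-LNP mouse 2), and all 4 CCl4 + 4MU mice lay below the lowest CCl4 + siLuc-LNP mouse. H19 differed by -0.87 ± 0.59. Cd24a was higher by 1.49 ± 0.60 (adjusted p = 0.183), a value of -0.68 without CCl4 + 4MU mouse 4.

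Without CCl4, none of the 6 genes passed in any treatment comparison. 4MU against control gave 0 calls with edgeR and with DESeq2 (0.00709% of all genes) and 1 gene with an unadjusted p under 0.05. There were likewise 0 calls by both tools and none at an unadjusted p under 0.05 in siLuc-LNP against control (0.213% of all genes) and in siHAS2-LNP against siLuc-LNP (0.0425%). The difference of the CCl4 effect with and without 4MU, tested as an interaction, gave 0 calls (5.67% of all genes), and that between siHAS2-LNP and siLuc-LNP gave 0 (0.0354%). DESeq2 called none in either, and none had an unadjusted p under 0.05.

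Whether the genes ranked the 14 CCl4-treated mice alike was not settled, since moderate correlations can go uncalled with so few mice. Of 15 pairs among the 6 genes, 0 passed after Benjamini-Hochberg adjustment over the pairs (two-sided permutation tests of log2 CPM with 100000 resamples). Afp and H19 had Pearson's r = 0.34 and Spearman's rho = 0.29 (adjusted p = 0.365 and 0.558). CCl4 + siHAS2-LNP mouse 1 had 306 CPM of Afp and 35.8 CPM of H19, and CCl4 mouse 2 was lowest in both. Without the 2 mice farthest from the median of Afp, r was 0.80. Afp and Gpc3 had r = 0.51 (permutation p = 0.0652) and rho = 0.60 (permutation p = 0.0285), with adjusted p = 0.245 and 0.427. The largest r was 0.60, between Gpc3 and Cd24a (adjusted p = 0.245), and it was 0.31 without the 2 mice farthest from the median of Gpc3. After each value was set against the mean of its group, this pair had r = 0.72 (adjusted p = 0.0510) and rho = 0.77 (adjusted p = 0.0339). Its r was then 0.48 without the 2 farthest mice, and Afp with H19 had r = -0.03. Centring ties the values within a group, which these permutations ignored, so the centred p-values can be too small. CCl4 + 4MU mouse 4 was highest in both Gpc3 and Cd24a.

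**Figure D5:**
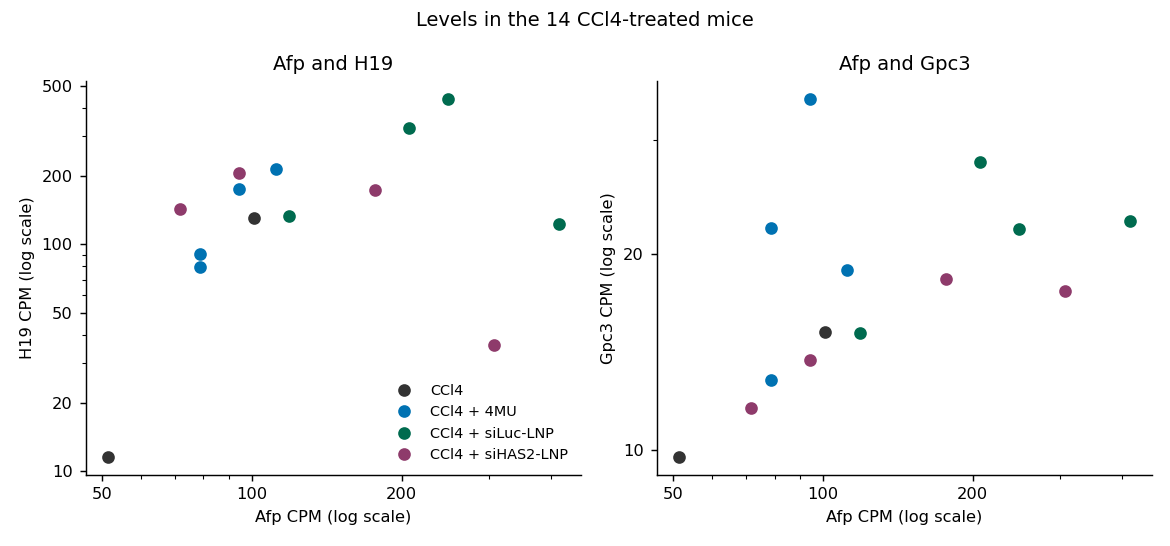
Afp against H19 (left) and against Gpc3 (right) in the 14 CCl4-treated mice, in CPM on log scales; each point is a mouse, coloured by group. Afp ranges from 51.5 to 414 CPM, and its correlation over the mice is 0.34 with H19 and 0.51 with Gpc3 on the log2 scale.

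For each tested member, the genes nearest in rank over those 14 mice were looked up among 12833 named genes, as a description that gets no test. Afp was nearest to H1f3 (rho = 0.82), a linker histone, Tspan33 (0.79) and Prmt6 (0.78). H19 was nearest to Gngt1 (0.81), C1ql3 (0.77) and Commd7 (0.75), and Gpc3 to Cdhr2 (0.85), Ifi27l2b (0.83) and Plpp2 (0.79). Igf2bp3 lay nearest to Fnip2 (0.83), Sgce (0.82), itself an imprinted gene, and Snx10 (0.80). For Cd24a the nearest were the tetraspanin Tspan8 (0.87), Ubl4a (0.85) and the keratin Krt18 (0.85), and for Dlk1 Glrx2 (0.90), Sucnr1 (0.85) and the growth factor Bmp4 (0.84).

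Of 14 known regulators of these genes, 0 rose and 4 fell in the mean CCl4 effect. The list median was -0.12 on the log2 scale. Over all tested genes 26.3% rose and 25.6% fell in this contrast. The number of regulators that fell was thus near the share over all genes. Zhx2, the postnatal repressor, had a mean of 11.2 CPM in CCl4-treated and 10.7 CPM in other mice, a log2 fold change of 0.06 ± 0.13 (adjusted p = 0.700). Zbtb20, a repressor of Afp, had -0.38 ± 0.18 (adjusted p = 0.0825). The 4 that fell were Cebpa (-0.65 ± 0.14) and the activators Foxa2 (-0.29 ± 0.11), Foxa3 (-0.37 ± 0.11) and Nr5a2 (-0.33 ± 0.07). The 3 other genes of the albumin family fell slightly, namely Alb (-0.31 ± 0.12), Afm (-0.34 ± 0.07) and Gc (-0.27 ± 0.08), whereas Afp rose by 4.70.

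Of 15 imprinted growth genes tested, 11 rose and 1 fell in the mean CCl4 effect, with a list median of 0.77, in a contrast where 26.3% of all tested genes rose and 25.6% fell. Without Rian and Mirg, which were tested only through the CCl4-treated mice, 9 of 13 rose. Beside the Dlk1 cluster they included Grb10 (1.95 ± 0.14), Plagl1 (1.30 ± 0.18), Mest (1.04 ± 0.19) and Igf2r (0.77 ± 0.11), which clears insulin-like growth factor 2, and the 1 that fell was Dcn (-0.46 ± 0.11). Among 11 tested partners of insulin-like growth factor 2 and RNA-binding relatives, 3 rose, with Igf2bp2 at 1.21 ± 0.19 and Igfbp1 at 1.65 ± 0.37, and 4 fell, with Igf1 at -0.84 ± 0.10. Of 3 other glypicans tested, Gpc1 rose (1.52 ± 0.27). Other genes high in fetal liver rose in 4 of 5 tested, led by Lpl (1.94 ± 0.23) and Scd2 (1.67 ± 0.30).

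Markers of growth and of other cell types moved with the same contrast, where 26.3% of all tested genes rose and 25.6% fell. All 10 mitosis genes rose (list median 4.53), 1 of them, Bub1, tested only through the CCl4-treated mice, from a sum of 2.97 to 37.5 CPM in mice without CCl4 to 63.5 to 724 CPM with it. Of 8 tested duct and progenitor markers 6 rose (6 of 7 without Cldn7, which passed the filter only with CCl4), their sum going from 56.6 to 105.3 CPM to 154 to 781 CPM, and the sum for stellate cell and fibroblast markers, of which 7 of 9 rose and 1 fell, went from 195 to 383 CPM to 300 to 1010 CPM. The 4 mesothelial markers rose (Wt1 tested only through the CCl4-treated mice), with sums of 0.943 to 13 CPM against 4.18 to 36.8 CPM. Erythroid markers fell in 5 of 8 tested, and 0 rose. B cell and neutrophil markers fell in 3 of 9, near the share over all genes, and 0 rose. Of 8 hepatocyte markers 1 rose and 4 fell, Cyp2e1, which activates CCl4, by 2.83 on the log2 scale. The part of these changes in the members' levels was not tested.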

How the data were processed

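Whole-liver RNA of 27 mice was sequenced in paired-end mode from a directional kit. According to the study, the authors trimmed reads with Trimmomatic 0.39, aligned them to GRCm39 with HISAT2 and counted fragments per Ensembl gene with featureCounts, which dropped multi-mapping reads; the deposited values are raw counts. Reads of near-identical copies, as for Cd24a, can thus be lost.

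Genes with a mean of 10 or more counts per library (14114) were fitted in edgeR 4.0.16 (R 4.3.3) with TMM scaling, the 8 groups in 1 quasi-likelihood model and Benjamini-Hochberg adjustment over all genes, a threshold of 0.05. Effects carry the fit's standard errors. The scripts were tested on simulated data. Alternatives were DESeq2 1.42.0, its size factors, no low-count filter, limma 3.58.1 with quality weights, a replicate block, only the groups compared, and each mouse left out. Groups came from the labels, and p-values measure the spread between mice. Members and lists were chosen with earlier results of these data known. All 7 members are named, and list genes when called or when they are regulators; 3 genes nearest in rank are named per member. Gene models came from GENCODE M39 and sequences from RefSeq.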

Additional observations from a re-analysis of the deposited data

Results flagged for a closer look

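In groups of 4 mice, a value was listed when its gap to the nearest mouse, as a share of the group's range, exceeded Dixon's critical value; 10 of 71 tests did so, and chance gives about 1 in 20. H19 in control mouse 4 (12.3 CPM against 2.24 to 3.80) had a ratio of 0.844. Cd24a in CCl4 + 4MU mouse 4 (27.9 CPM against 1.20 to 2.36) had 0.956, and in the same mouse Krt19 (92.5 CPM against 0.645 to 2.51) had 0.980 and the summed erythroid markers (445 against 76.4 to 110 CPM) had 0.908. Cd24a was low in CCl4 + siLuc-LNP mouse 2 (1.81 CPM against 3.36 to 3.44), with 0.947. Dlk1 in control mouse 4 (0.163 CPM, 4 counts, against 0) had 1.0, so its baseline rests on that mouse.

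Among genes and lists beside the members, Zhx2 was low in CCl4 + siHAS2-LNP mouse 3 (6.94 against 10.3 to 10.7 CPM), with a ratio of 0.912. Krt19 in CCl4 + siHAS2-LNP mouse 4 (2.80 against 0.821 to 1.02 CPM) had 0.897. The summed duct and progenitor markers in CCl4 + siLuc-LNP mouse 1 (781 against 310 to 386 CPM) had 0.839. The summed mitosis genes in CCl4 + siHAS2-LNP mouse 1 (256 against 221 to 226 CPM) had 0.869. No explanation of these values was tested.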

How the results depend on the processing

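Of 269 recomputed counts and summary values, 250 kept their call or stayed close to their count. The members called in CCl4 + 4MU against CCl4 went from 1 to 0 with limma and quality weights, to 0 with the replicate block and to 3 without the low-count filter. Without that filter the counts were also 3 in CCl4 + siLuc-LNP against CCl4, 3 in CCl4 + 4MU against CCl4 + siLuc-LNP, 2 in CCl4 + siHAS2-LNP against CCl4 and 1 in the 4MU interaction; DESeq2 gave 1 in the first and 1 in the second of these. The cause was not tested. Leaving out each mouse in turn gave 2 to 4 calls in CCl4 against control (2 without CCl4 mouse 1), 0 to 2 in CCl4 + 4MU against CCl4 (0 without CCl4 + 4MU mouse 2 or CCl4 mouse 2), 0 to 2 in CCl4 + siLuc-LNP against CCl4, 0 to 2 in CCl4 + siHAS2-LNP against CCl4 (0 without CCl4 mouse 2), 0 to 1 in CCl4 + 4MU against CCl4 + siLuc-LNP and 0 to 1 in the 4MU interaction; without a CCl4 mouse, the lone mouse left is assumed to vary like other groups. In the mean CCl4 effect, the calls of Afp, H19 and Gpc3 held in every alternative run. Those of Igf2bp3 and Dlk1 held there too, but as a description, since both passed the low-count filter only through the CCl4-treated mice. The Cd24a call there was lost with quality weights (0.56, adjusted p = 0.102) and with the replicate block (0.65, adjusted p = 0.0861), and in CCl4 + 4MU against 4MU also when only those groups were fitted (adjusted p = 0.109). Of single values, 6 of 549 changed sign, all Cd24a. Against siHAS2-LNP it was -0.0048 without the filter, -0.27 with the replicate block and -0.18 to 0.31 with a mouse left out. In CCl4 + 4MU against CCl4 + siLuc-LNP it was -0.18 with quality weights and -0.68 to 1.81 with a mouse left out. Replicate numbers did not pair the mice: deviations of same-numbered mice correlated at a median of -0.0167 over 83 pairs, against -0.0124 over 234 others. With the block the members called were 5 in the mean CCl4 effect and 5 in CCl4 + 4MU against 4MU. Genes of a few counts, Igf2bp3, Dlk1 and Igf2, are limited by depth.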
